A study of Homo sapiens with 12 samples.

Results

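The replication-dependent histone genes encode the linker histone H1 and the core histones H2A, H2B, H3 and H4 that package newly copied DNA. They lie in clusters, lack introns as a rule, and are transcribed in S phase under NPAT, a coactivator that gathers at the clusters. Their mRNAs end in a conserved stem-loop in place of a poly(A) tail, and the stem-loop is bound by SLBP, which carries the mRNA through processing, translation and decay. RNA selected by its poly(A) tail loses most of these transcripts, whereas the libraries described here were made by ribosomal RNA depletion.

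The genes were taken by symbol: every gene whose symbol starts with HIST1H, HIST2H, HIST3H or HIST4H, leaving out symbols that end in PS and digits, which mark pseudogenes. This gave 71 genes of the 23533 in the count tables of the series, of which 70 were in the MEC1 table, 65 in the JVM2 table and 64 in both. The HIST1 cluster lies on chromosome 6, HIST2 and HIST3 lie on chromosome 1, and HIST4H4 lies on chromosome 12. After a filter on low counts, 65 genes were tested in MEC1 and 62 in JVM2. Of the symbols kept, 4 are annotated as pseudogenes (HIST2H3DP1, HIST2H2BB, HIST2H2BC and HIST2H2BD), and HIST2H2AA4 stands in the tables under 2 identifiers.

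MEC1 and JVM2 are established human neoplastic B-cell lines, and the study asked what raised UGT2B17, a steroid-conjugating glucuronosyltransferase, does to them. MEC1-CTRL cells carried a stable shRNA against UGT2B17 under puromycin selection, and MEC1-2B17 cells carried the UGT2B17 coding sequence in pcDNA6 under blasticidin selection. JVM2-CTRL cells carried empty pcDNA6 and JVM2-2B17 cells carried UGT2B17 in pcDNA6, both under blasticidin selection. Each group had 3 biological replicates, 12 libraries in all. In MEC1, UGT2B17 level, construct and antibiotic changed together between the arms and cannot be told apart. The methods name no independent clones, so replicate spread is that between cultures of 1 selected population per arm.

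MEC1 libraries held 31762649 to 37744991 counts and JVM2 libraries 8809179 to 11231330, so line and depth cannot be told apart. The paper names Genome Québec and the CHU de Québec research center as sequencing sites. Which library went to which is not given in the sources used here, and the part of site in the values was not tested. UGT2B17 was higher in 2B17 than in CTRL in both lines (log2 fold change 0.94 in MEC1 and 0.48 in JVM2). All 8 B-cell markers examined were listed and tested in both lines, and no erythroid marker was listed. Of the B-cell markers, 3 were called higher and 4 lower in MEC1-2B17, and 4 higher and 1 lower in JVM2-2B17. Over all genes, 41.7% were called in MEC1 and 29.3% in JVM2. Of 5 T-cell markers, 4 were listed in MEC1 and 1 in JVM2. In each line 1 was tested and called lower in 2B17 (log2 fold change -0.70 in MEC1 and -0.33 in JVM2). Summed T-cell markers ran from 19.0 to 19.3 CPM in MEC1-CTRL, 11.4 to 12.1 in MEC1-2B17, 44.5 to 49.5 in JVM2-CTRL and 31.5 to 40.3 in JVM2-2B17. Summed myeloid markers ran from 2.32 to 2.76, 4.65 to 5.24, 5.41 to 6.58 and 11.2 to 13.8 CPM, and summed fibroblast and epithelial markers from 2.29 to 2.81, 3.67 to 4.86, 18.6 to 20.3 and 15.5 to 18.2 CPM, in the same order. Their part in the histone values was not tested. Replicates were uneven: JVM2-2B17 replicate 2 differed from its mates by a mean chi-square per gene of 8.30 and 8.46 against 2.24 between those mates, and MEC1-CTRL replicate 3 by 8.45 and 6.76 against 2.52.

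The stem-loop that defines the family was read from the GRCh38 genome. A 16-base pattern (GG, any 3 bases, TNT, any 2 bases, A, any 3 bases, CC) with 6 paired bases in its stem was searched on the coding strand in the 200 bases after the stop codon, and it was present in 62 of 65 coding histone genes placed on the genome (95.4%) against 83 of 20046 coding genes (0.414%). It started 23 to 63 bases after the stop codon, with a median of 36. HIST1H3E, HIST1H2BI and HIST1H4L held no match in that window. The stem-loops of genes that the results below turn on are shown with the 16-base core in capitals.
HIST1H3C, chr6:26045844-26045869, plus strand: gaaaaGGCTCTTTTCAGAGCCactca
HIST1H2BB, chr6:26043227-26043252, minus strand: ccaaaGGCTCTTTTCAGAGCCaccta
HIST1H2BE, chr6:26184205-26184230, plus strand: ccaaaGGCTCTTTTCAGAGCCactca
HIST1H3I, chr6:27871845-27871870, minus strand: caaaaGGCTCTTTTCAGAGCCcctca
HIST2H3D, chr1:149813223-149813248, minus strand: ctaaaGGCTCTTTTCAGAGCCactgc
HIST3H2BB, chr1:228458533-228458558, plus strand: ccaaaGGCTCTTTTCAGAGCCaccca
HIST1H4C, chr6:26104312-26104337, plus strand: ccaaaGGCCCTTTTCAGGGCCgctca
HIST1H4F, chr6:26240773-26240798, plus strand: taaaaGGCCCTTTTCAGGGCCacctc
HIST1H4I, chr6:27139649-27139674, plus strand: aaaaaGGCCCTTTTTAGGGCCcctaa
HIST4H4, chr12:14770719-14770744, minus strand: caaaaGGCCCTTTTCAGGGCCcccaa
The core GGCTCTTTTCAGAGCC was shared by 37 of the 62 genes, and genes with that same core include HIST1H3C, HIST1H2BE, HIST2H3D and HIST3H2BB, whose values moved in different directions. The core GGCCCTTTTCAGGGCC was held by 9 genes. The letters AAAGA, the purine-rich part of the element that pairs with U7 small nuclear RNA, stood within 30 bases after the stem-loop in 25 of the 62 genes (40.3%).

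Promoter sequences from RefSeq (GRCh38.p14, 250 bases before to 50 after the start) were matched to 59 coding members. The entry for HIST1H3D was left out because it lies at the start of its neighbour HIST1H2AD and not at its own. On either strand, the TATA box TATAAA was present in 64.4% of the 59 promoters against 11.5% of 35116 RefSeq promoters, and CCAAT in 84.7% against 34.6%. The octamer ATTTGCAT, which OCT1 binds in H2B promoters, was present in 40.7% against 1.77%. By class, the octamer was found in 76.9% of H2A and 77.8% of H2B promoters and in no H1, H3 or H4 promoter, and CCAAT was found in 3 of 12 H4 promoters and in every promoter of the other classes. H2A and H2B genes on opposite strands with starts 170 to 251 bases apart share part of this window, so the same site can count for both genes. A match is a description of the letters and not evidence of binding. The promoters of HIST1H3C and HIST1H2BB, neighbours that were almost silent in MEC1, and of HIST3H2BB, 1 of the genes that changed most in MEC1, are shown with these motifs in capitals on whichever strand they occur.
HIST1H3C, chr6:26045134-26045433, plus strand: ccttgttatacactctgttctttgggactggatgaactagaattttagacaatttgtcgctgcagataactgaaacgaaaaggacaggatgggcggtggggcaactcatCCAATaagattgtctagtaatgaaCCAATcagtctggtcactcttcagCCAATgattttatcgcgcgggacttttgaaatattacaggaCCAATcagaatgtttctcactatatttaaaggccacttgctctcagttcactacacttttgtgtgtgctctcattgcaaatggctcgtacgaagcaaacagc
HIST1H2BB, chr6:26043664-26043963, minus strand: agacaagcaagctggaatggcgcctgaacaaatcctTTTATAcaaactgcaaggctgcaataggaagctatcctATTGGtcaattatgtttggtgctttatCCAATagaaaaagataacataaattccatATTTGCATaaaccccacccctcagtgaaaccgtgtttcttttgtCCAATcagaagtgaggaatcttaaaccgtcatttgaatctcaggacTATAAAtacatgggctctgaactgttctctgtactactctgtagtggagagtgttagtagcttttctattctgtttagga
HIST3H2BB, chr1:228457853-228458152, plus strand: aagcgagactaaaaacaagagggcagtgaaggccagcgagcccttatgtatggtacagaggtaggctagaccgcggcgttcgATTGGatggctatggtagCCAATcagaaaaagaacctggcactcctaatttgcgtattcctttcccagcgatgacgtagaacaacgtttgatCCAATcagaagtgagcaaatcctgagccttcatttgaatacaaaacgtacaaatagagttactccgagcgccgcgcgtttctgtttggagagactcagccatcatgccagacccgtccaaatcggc

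Histone genes took 1.78% to 2.07% of all counts in the MEC1 libraries and 2.16% to 2.46% in the JVM2 libraries. Levels are given as CPM, the counts of a gene per 1000000 counts of its library after TMM scaling, and the 2 lines were scaled separately. The HIST1 cluster gave 94.5% ± 0.356 (SD, n = 3) of the histone CPM in MEC1-CTRL and 94.1% ± 0.247 in JVM2-CTRL. HIST2 gave 4.90% ± 0.328 and 5.62% ± 0.240, and HIST3 and HIST4 gave less than 1% each. In bulk libraries, a smaller share of cells in S phase and less histone mRNA per cell cannot be told apart.

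Per kilobase of annotated exon, the linker histone genes HIST1H1B, HIST1H1C and HIST1H1E and a few core histone genes led in both lines. In MEC1-CTRL the order was HIST1H1C (1644 ± 44.8 CPM per kilobase), HIST1H1E (1563 ± 47.6), HIST1H4J (1464 ± 99.1), HIST1H1B (1392 ± 45.7), HIST1H3B (1327 ± 27.3) and HIST1H4E (1234 ± 21.4), and each of the first 4 overlapped the next over the 3 libraries. In JVM2-CTRL the order was HIST1H3B (1915 ± 210.0), HIST1H1C (1858 ± 60.5), HIST1H4C (1722 ± 105.0), HIST1H1B (1715 ± 88.2), HIST1H4E (1695 ± 101.0) and HIST1H1E (1545 ± 49.1), and each of the first 4 again overlapped the next. HIST1H1B, HIST1H1C and HIST1H1E encode H1 linker histones, which bind DNA between nucleosomes. HIST1H4J shares 92.1% of its 50-base stretches with other annotated transcripts, its closest copy being HIST1H4K, so that the split of reads between the 2 genes is uncertain. Per kilobase of coding sequence, HIST1H1C had the highest mean in MEC1-CTRL (1872 ± 51.0) but overlapped HIST1H1E (1864 ± 56.7). In JVM2-CTRL, HIST1H3B had the highest mean (2382 ± 261.0) but overlapped HIST1H4E (2238 ± 133.0).

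Within HIST1, 44 of the 50 tested genes in MEC1 and 48 of the 50 in JVM2 stood above 50 CPM in CTRL. HIST1H3E and HIST1H4K stood below 10 CPM in both lines. HIST1H3C, HIST1H2BB and HIST1H2BE stood below 10 CPM in MEC1 alone, at 2.25 ± 0.411, 0.386 ± 0.102 and 1.98 ± 0.503 CPM in MEC1-CTRL against 589.1 ± 44.5, 250.2 ± 8.87 and 139.7 ± 1.97 CPM in JVM2-CTRL. HIST1H2BB and HIST1H3C, which encode a core H2B and a core H3, are next to each other on chromosome 6 (chr6:26043227-26043713 and chr6:26045384-26045869). The histone genes on either side of that pair, HIST1H2AB at chr6:26033092-26033618 and HIST1H1C at chr6:26055740-26056470, were at 82.8 ± 1.80 and 1202 ± 32.8 CPM in MEC1-CTRL, and at 146.3 ± 5.26 and 1358 ± 44.2 CPM in JVM2-CTRL. The difference in level between the lines was not tested. The rule for named genes does not cover HIST1H2BB and HIST1H2AB, and they and the grouping by position were chosen with their values known.

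**Figure D1:**
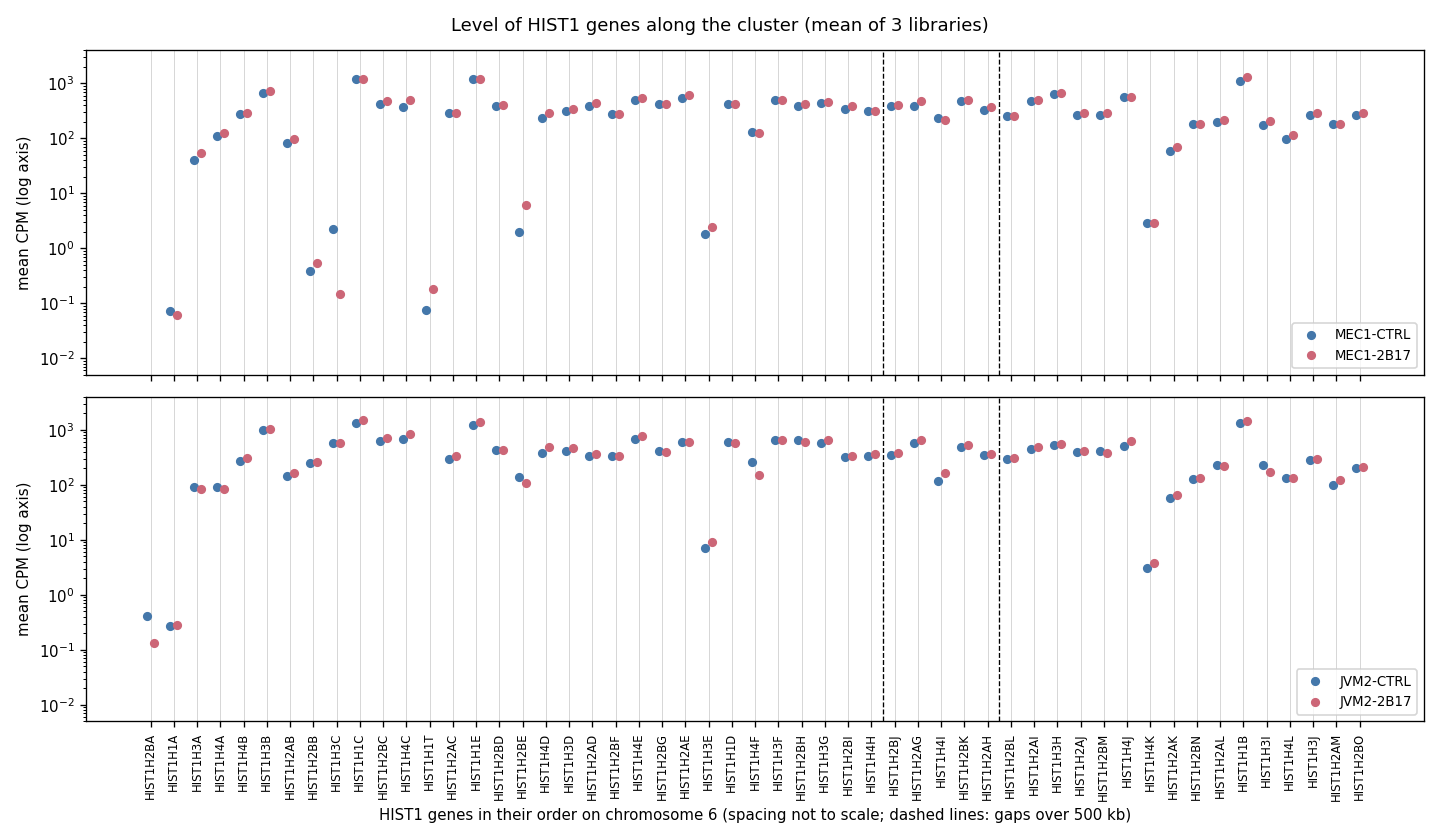
Mean CPM of 3 libraries (vertical log axis) for HIST1 genes in their order on chromosome 6 (horizontal axis, spacing not to scale), in MEC1 above and JVM2 below, with CTRL in blue and 2B17 in red. Most genes stand above 50 CPM in both lines, while HIST1H2BB, HIST1H3C and HIST1H2BE stand below 10 CPM in both MEC1 arms and above 100 CPM in both JVM2 arms.

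The first comparison asked which histone genes differed between MEC1-2B17 and MEC1-CTRL. In MEC1, 28 of 65 histone genes changed (43.1%) at an adjusted p below 0.05 in edgeR's quasi-likelihood test, beside 41.7% of all 16581 genes tested. The direction was uneven: 27 rose (41.5%, beside 20.0% of all genes) and 1 fell (1.54%, beside 21.6%). The changes were mostly small, since 23 of the 27 rises lay between 0.11 and 0.44 on the log2 scale and 4 exceeded 0.5. The median log2 fold change was 0.12 over histone genes and 0.0026 over all genes, and 84.6% of histone genes were above 0 beside 50.4% of all genes. The CPM of the arms did not overlap for 26 of the 65 histone genes, beside 50.1% of all genes tested, so arms apart were common in MEC1. Without MEC1-CTRL replicate 3, 26 of 67 histone genes changed, 25 of them upwards, beside 6606 of all 16920 genes tested. Across all replicates left out in turn, the count ran from 22 of 65, without MEC1-2B17 replicate 1 or 3, to 36 of 67, without MEC1-2B17 replicate 2. Over all genes, the fits without MEC1-2B17 replicate 1, 3 and 2 called 6254 of 16880, 6069 of 16926 and 6331 of 16936.

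In JVM2, 14 of 62 histone genes changed (22.6%), beside 29.3% of all 13021 genes tested. Of these, 11 rose (17.7%, beside 14.1% of all genes) and 3 fell (4.84%, beside 15.3%). The 11 rises lay between 0.18 and 0.46 on the log2 scale. The median log2 fold change was 0.07 over histone genes and 0.00012 over all genes, and 71.0% of histone genes were above 0 beside 50% of all genes. The arms did not overlap for 22 of the 62 histone genes, beside 45.2% of all genes tested in JVM2. The count moved with single libraries, as did that over all genes. Without JVM2-2B17 replicate 2, 24 of 62 histone genes changed (21 upwards), beside 4541 of 13306 genes (2172 upwards). Without JVM2-CTRL replicate 2 or without JVM2-CTRL replicate 3, 8 of 62 changed (5 upwards). Over all genes, those 2 fits called 2765 of 13182 (1290 upwards) and 2687 of 13309 (1281 upwards). The 3 genes that fell numbered 3 in each of these fits.

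**Figure D2:**
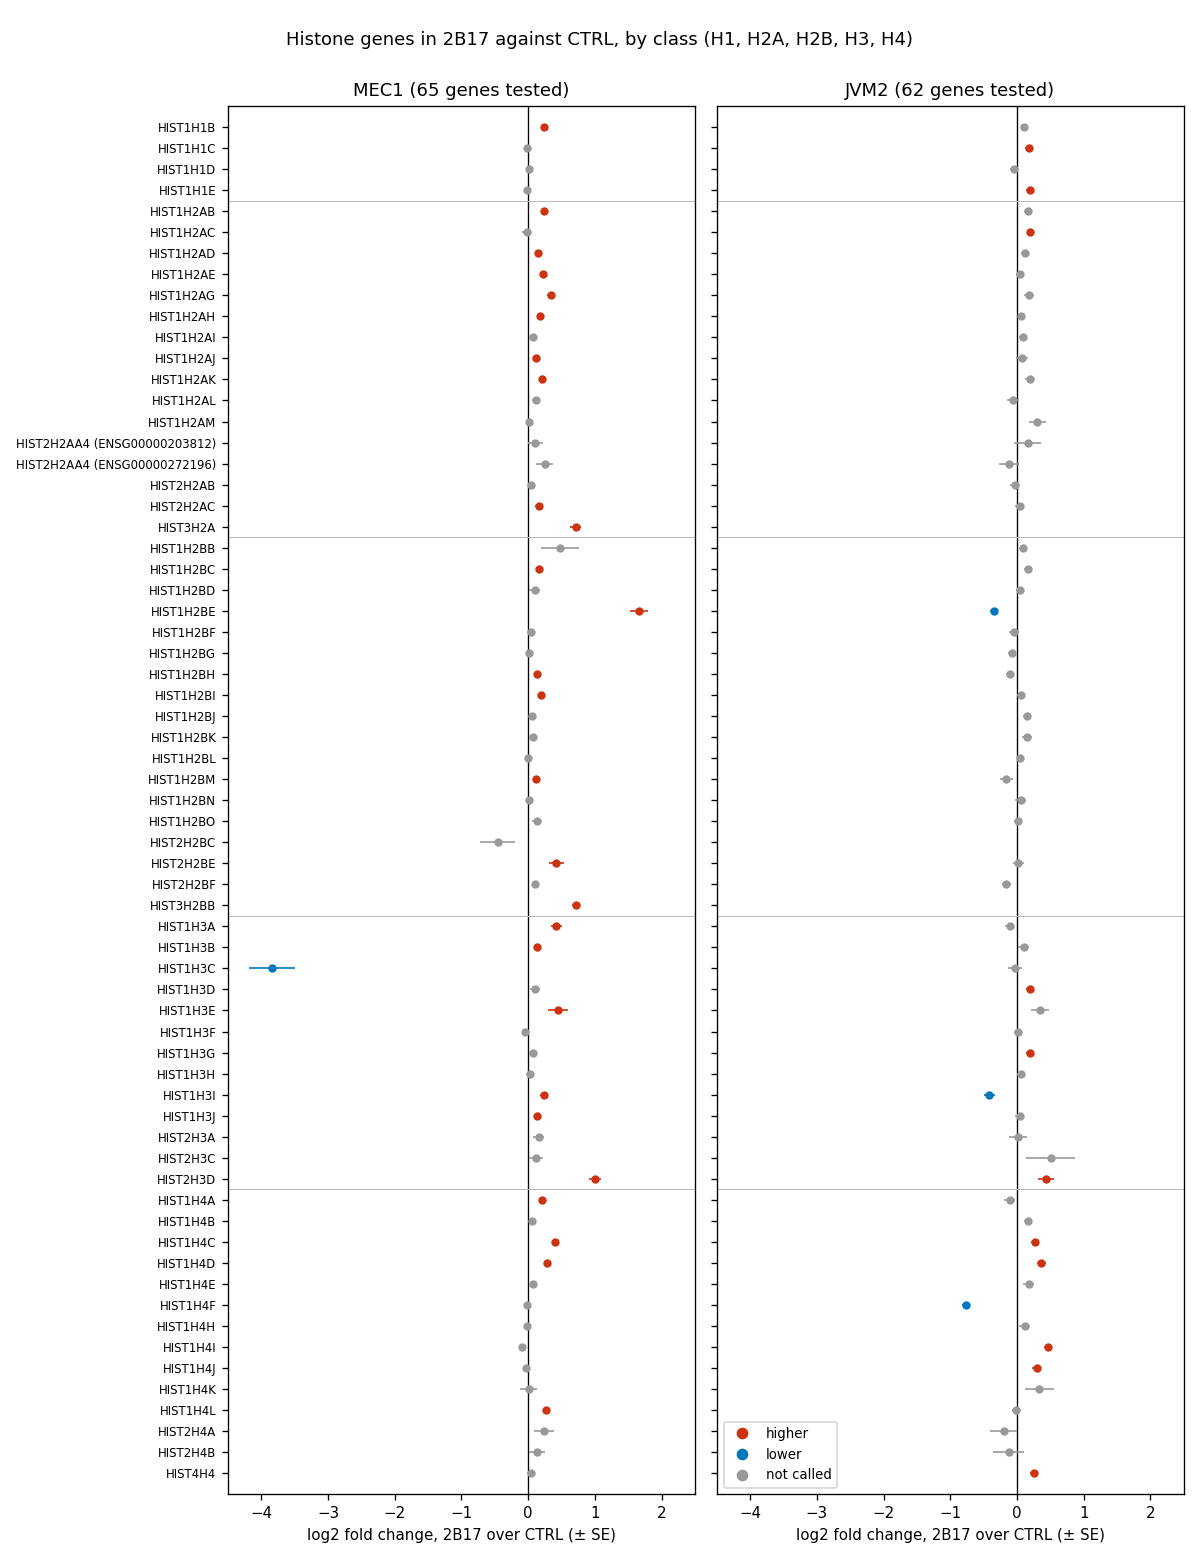
The log2 fold change of 2B17 over CTRL (horizontal axis, bars ± SE) for each histone gene tested, ordered by class from H1 to H4, in MEC1 on the left and JVM2 on the right, with red for genes called higher, blue for lower and grey for the rest. Most points lie just right of 0, while HIST1H3C at -3.85 and HIST1H2BE at 1.67 stand far from the others in MEC1.

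HIST1H3C was the 1 gene that fell in MEC1. Its counts were 81, 66 and 90 in MEC1-CTRL and 11, 3 and 1 in MEC1-2B17, where the arms did not overlap and the 2B17 libraries were almost empty of it. The log2 fold change was -3.85 ± 0.346 (SE; adjusted p = 3.6e-08, edgeR). Over the summed counts, 237 in CTRL and 15 in 2B17, the level was 14.7-fold lower with an exact 95% interval of 8.72 to 26.6 that covers counting error only. Without MEC1-2B17 replicate 1, which held 11 of the 15 counts, the log2 fold change was -5.09. In JVM2 the gene stood at 640.1, 569.0 and 558.1 CPM in CTRL and 641.0, 466.0 and 617.7 CPM in 2B17, which overlapped (log2 fold change -0.03 ± 0.102, adjusted p = 0.83). The change differed between the lines by -3.79 ± 0.402 on the log2 scale (adjusted p = 3.4e-07, edgeR interaction term). Its neighbour HIST1H2BB had 16, 16 and 9 counts in MEC1-CTRL and 19, 17 and 17 in MEC1-2B17, which gave a log2 fold change of 0.47 ± 0.287 (adjusted p = 0.20).

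HIST1H2BE, another gene for a core H2B, went the other way in MEC1. It had 64, 88 and 56 counts in MEC1-CTRL and 200, 214 and 200 in MEC1-2B17, a 3.17-fold higher level without overlap (log2 fold change 1.67 ± 0.138, adjusted p = 1.2e-08). In JVM2 it fell from 140.8, 137.4 and 140.8 CPM in CTRL to 115.8, 106.4 and 106.2 CPM in 2B17, again without overlap (log2 fold change -0.35 ± 0.0593, adjusted p = 0.00078). The change differed between the lines by 2.02 ± 0.136 (adjusted p = 4.4e-10). At chr6:26172059-26184655 the gene overlaps an annotated antisense long noncoding RNA, ENSG00000283064, and shares 30.5% of its 50-base stretches with other transcripts. Whether counting used strand is not given in the sources used here, so reads of the pair cannot be told apart.

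HIST2H3D, a core H3 gene on chromosome 1 (chr1:149813225-149813693), rose in both lines. It stood at 44.2, 51.6 and 62.1 CPM in MEC1-CTRL and 112.8, 89.9 and 112.2 CPM in MEC1-2B17, a 2.00-fold higher level (log2 fold change 1.00 ± 0.0901, adjusted p = 3.7e-08). In JVM2 it stood at 63.3, 51.6 and 55.6 CPM in CTRL and 68.7, 92.9 and 68.8 CPM in 2B17 (log2 fold change 0.43 ± 0.115, adjusted p = 0.014). The arms did not overlap in either line, and the JVM2 call was lost without JVM2-CTRL replicate 2 (adjusted p = 0.075) or replicate 3 (adjusted p = 0.056). The change was larger in MEC1 by 0.57 ± 0.172 (adjusted p = 0.014). HIST2H3D shares 71.9% of its 50-base stretches with other transcripts, so the split of reads between them is uncertain. The closest is the pseudogene H3P4, listed here as HIST2H3DP1. HIST2H3DP1 had 9, 7 and 9 counts in MEC1-CTRL and 23, 6 and 16 in MEC1-2B17. In JVM2 it had 3, 5 and 0 counts in CTRL and 4, 5 and 3 in 2B17.

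HIST1H4C and HIST1H4D, which encode H4 and lie at chr6:26103933-26104337 and chr6:26188710-26189112, were the other 2 genes that rose in both lines. HIST1H4C stood at 383.2, 387.5 and 366.4 CPM in MEC1-CTRL and 510.5, 496.8 and 498.0 CPM in MEC1-2B17 (log2 fold change 0.40 ± 0.0337, adjusted p = 1.2e-08). In JVM2 it stood at 745.9, 667.5 and 679.0 CPM in CTRL and 854.4, 872.9 and 804.8 CPM in 2B17 (log2 fold change 0.28 ± 0.0595, adjusted p = 0.0042). Its arms were apart in both lines. HIST1H4D rose by 0.29 ± 0.0363 in MEC1 (adjusted p = 3.2e-06) and by 0.36 ± 0.0633 in JVM2 (adjusted p = 0.00095). HIST1H4C overlaps the annotation of HIST1H2BC, which lies on the opposite strand.

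Calls in both lines in the same direction thus numbered 3 of 62 genes tested in both, beside 8.37% of the 12243 genes tested in both lines, and calls in opposite directions numbered 2, HIST1H2BE and HIST1H3I, beside 7.43%. Without JVM2-2B17 replicate 2, the same-direction count was 9. Of the 27 genes that rose in MEC1, 25 were tested in JVM2, and 18 of those (72.0%) had a log2 fold change above 0 there. That share was close to the 71.0% of all histone genes tested in JVM2, whether or not they rose in MEC1. Among all genes that rose in MEC1 it was 50.6%. HIST1H3I, an H3 gene at chr6:27871845-27872346, had 171.4, 177.8 and 177.6 CPM in MEC1-CTRL and 222.8, 176.6 and 222.5 CPM in MEC1-2B17, which overlapped (log2 fold change 0.24 ± 0.0621, adjusted p = 0.0043, and 0.065 in DESeq2). In JVM2 it fell from 241.9, 224.7 and 214.5 CPM to 188.6, 149.1 and 172.4 CPM without overlap (log2 fold change -0.42 ± 0.0820, adjusted p = 0.0022).

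The change differed between the lines for 14 of 63 histone genes tested for it (22.2%), beside 32.0% of all 15130 genes. Without JVM2-2B17 replicate 2 it differed for 16 of 64, beside 5063 of all 15831 genes. Besides HIST1H3C, HIST1H2BE, HIST1H3I and HIST2H3D, the largest difference was that of HIST1H4F, an H4 gene at chr6:26240393-26240793, at 0.76 ± 0.0853 (adjusted p = 7.4e-07). HIST1H4F stood at 271.6, 253.2 and 245.0 CPM in JVM2-CTRL and 148.5, 153.2 and 151.4 CPM in JVM2-2B17, a 1.70-fold lower level (log2 fold change -0.77 ± 0.0588, adjusted p = 1.1e-06). In MEC1 its arms overlapped, at 128.5, 138.0 and 120.8 CPM in CTRL and 133.2, 118.1 and 133.6 CPM in 2B17 (log2 fold change -0.01 ± 0.0482, adjusted p = 0.90). Another H4 gene, HIST1H4I at chr6:27139282-27139678, showed the largest rise in JVM2, from 123.0, 119.4 and 114.8 CPM to 162.7, 166.4 and 161.7 CPM (log2 fold change 0.46 ± 0.0566, adjusted p = 6.8e-05). In MEC1 its arms overlapped (log2 fold change -0.09 ± 0.0510, adjusted p = 0.16), and the 2 lines differed by -0.55 ± 0.0839 (adjusted p = 3.8e-05).

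**Figure D3:**
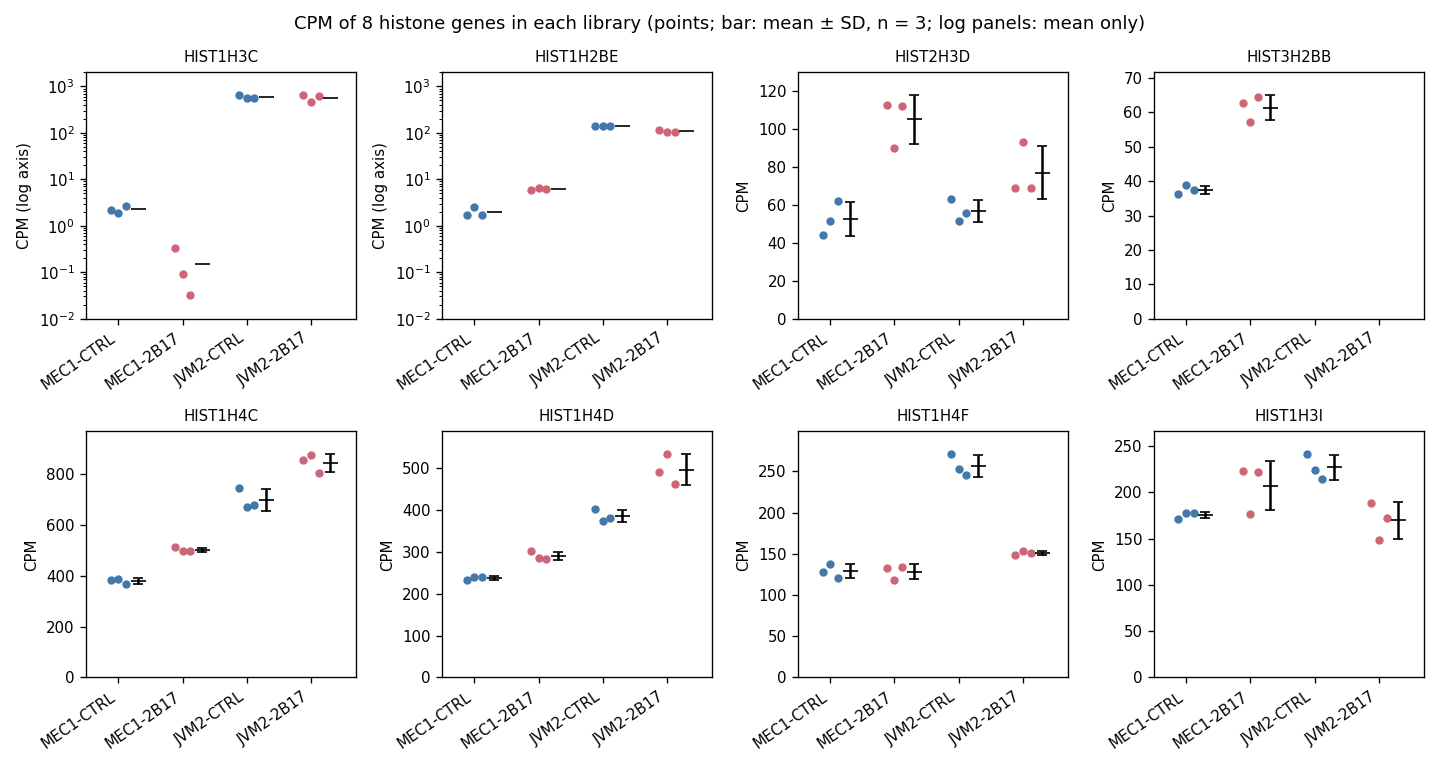
CPM of 8 histone genes (vertical axis from 0, or a log axis for HIST1H3C and HIST1H2BE) in each of the 12 libraries by group, with the mean ± SD of 3 libraries beside the points, or the mean alone on log axes. HIST1H4C, HIST1H4D and HIST2H3D are higher in 2B17 in both lines, HIST1H4F is lower in JVM2-2B17, HIST1H3I and HIST1H2BE go in opposite directions, and HIST3H2BB has no JVM2 points because the JVM2 table does not list it.

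Among the most abundant genes, HIST1H1B rose in MEC1 from 1074, 1109 and 1147 CPM to 1378, 1245 and 1309 CPM (log2 fold change 0.24 ± 0.0353, adjusted p = 1.9e-05). HIST1H1C and HIST1H1E, the other leading H1 genes, had log2 fold changes of -0.01 and -0.02 in MEC1 (adjusted p = 0.77 and 0.69) and rose in JVM2 by 0.18 ± 0.0555 (adjusted p = 0.032) and 0.19 ± 0.0499 (adjusted p = 0.013). The difference between the lines was -0.19 (adjusted p = 0.041) for HIST1H1C and -0.20 (adjusted p = 0.012) for HIST1H1E. HIST1H1C lost its call of a difference when any of 7 libraries was left out. HIST1H3B rose in MEC1 by 0.13 ± 0.0449 (adjusted p = 0.024, arms overlapping), and HIST1H4E was not called in either line (adjusted p = 0.061 and 0.12). HIST1H4J rose in JVM2 by 0.30 ± 0.0702 (adjusted p = 0.0073). HIST1H3E, the low H3 gene with no stem-loop match, went from 1.66, 1.66 and 2.20 CPM to 2.52, 2.48 and 2.46 CPM in MEC1 (log2 fold change 0.44 ± 0.151, adjusted p = 0.025, and 0.088 in DESeq2).

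HIST3H2A and HIST3H2BB form the HIST3 pair on chromosome 1 (chr1:228434777-228457873 and chr1:228458103-228463104), transcribed away from each other with starts 230 bases apart. Both rose in MEC1. HIST3H2A went from 12.5, 12.4 and 14.3 CPM in CTRL to 22.2, 18.3 and 23.5 CPM in 2B17 (log2 fold change 0.71 ± 0.0834, adjusted p = 1.2e-06). HIST3H2BB went from 36.4, 38.8 and 37.4 CPM to 62.6, 57.2 and 64.4 CPM (log2 fold change 0.71 ± 0.0496, adjusted p = 1.1e-09). Neither gene overlapped between arms, and neither is listed in the JVM2 table. HIST4H4, the single HIST4 gene on chromosome 12 (chr12:14767999-14771131), had 48.8, 58.7 and 55.0 CPM in MEC1-CTRL and 58.0, 52.1 and 56.2 CPM in MEC1-2B17, which overlapped (log2 fold change 0.04 ± 0.0582, adjusted p = 0.67). In JVM2 it rose from 63.2, 61.4 and 61.2 CPM to 73.6, 76.8 and 72.3 CPM without overlap (log2 fold change 0.26 ± 0.0605, adjusted p = 0.0063). The difference between the lines was -0.22 ± 0.0907 and did not pass the test (adjusted p = 0.068).

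H2A and H2B genes often lie head to head. There were 11 such pairs, on opposite strands with starts 170 to 251 bases apart. In MEC1, both genes were called in 3 pairs (HIST1H2AJ with HIST1H2BM, HIST2H2AC with HIST2H2BE, and HIST3H2A with HIST3H2BB, all higher), 1 gene in 6 pairs and neither in 2. The log2 fold changes of partners differed by a median of 0.11 and at most by 0.28 in MEC1. In JVM2, of 10 pairs tested, 1 gene was called in 1 pair and neither in 9, and partners differed by a median of 0.11 and at most by 0.29. Without JVM2-2B17 replicate 2, both genes were called in 2 of those pairs, 1 gene in 4 and neither in 4. In MEC1, both genes were called in 1 to 4 pairs with 1 library left out, and in 2 without MEC1-CTRL replicate 3. Single genes were called at 41.7% in MEC1 and 29.3% in JVM2 over all genes. The pairs were drawn up with their values known.

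The clusters were then set beside each other. Over all genes, 20.0% rose and 21.6% fell in MEC1, and 14.1% rose and 15.3% fell in JVM2. In HIST1, 22 of 50 tested genes rose and 1 fell in MEC1 (median log2 fold change 0.11), and 9 rose and 3 fell in JVM2 (median 0.09). The rises in HIST1 numbered 20 without MEC1-CTRL replicate 3. In JVM2 they numbered 18 without JVM2-2B17 replicate 2 and 4 without JVM2-CTRL replicate 2 or 3, with 3 falls each time. In HIST2, 3 of 12 tested genes rose in MEC1 (HIST2H2AC, HIST2H2BE and HIST2H3D, median 0.15) and 1 of 11 rose in JVM2 (HIST2H3D, median 0.02). The rises in HIST2 numbered 5 of 14 without MEC1-2B17 replicate 2 and 2 of 11 without JVM2-2B17 replicate 2. The HIST2 median in JVM2 was -0.10 without JVM2-2B17 replicate 1, and in MEC1 it was 0.24 without MEC1-CTRL replicate 2 and 0.23 without MEC1-2B17 replicate 2. No test was made of the difference between clusters.

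Summed over its genes, HIST1 stood at 17300, 17521 and 16848 CPM in MEC1-CTRL and 19455, 17265 and 18590 CPM in MEC1-2B17, so the arms overlapped through MEC1-2B17 replicate 2. In JVM2 the sums were 22141, 20662 and 20327 CPM in CTRL and 23232, 22027 and 22076 CPM in 2B17, which overlapped through JVM2-CTRL replicate 1. HIST2 stood at 834.1, 973.2 and 871.7 CPM in MEC1-CTRL and 1094, 1034 and 1066 CPM in MEC1-2B17, without overlap, a ratio of means of 1.19. In JVM2 the HIST2 sums were 1254, 1269 and 1244 CPM in CTRL and 1275, 1155 and 1269 CPM in 2B17, which overlapped. Without genes that share more than 50% of their 50-base stretches with other transcripts, the 3 HIST2 genes left overlapped between the MEC1 arms, at 492.4 ± 55.9 and 583.7 ± 47.0 CPM. Sums over genes carry no test here.

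**Figure D4:**
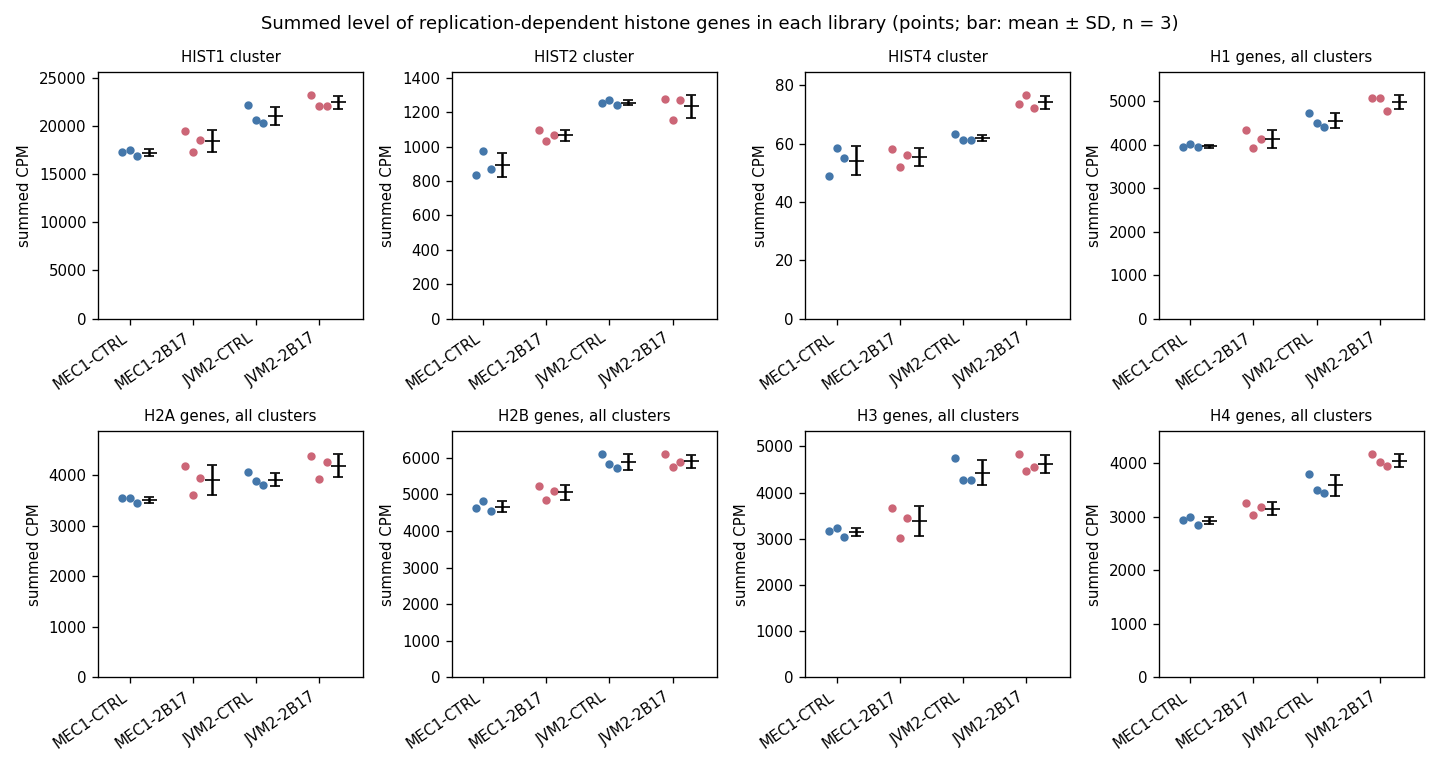
Summed CPM (vertical axis from 0) of the HIST1, HIST2 and HIST4 genes and of each histone class over all clusters, in each of the 12 libraries by group, with the mean ± SD of 3 libraries beside the points. H4 genes are higher in every 2B17 library than in every CTRL library of the same line, whereas the HIST1 sums of the arms overlap in both lines. The arms are also apart for HIST2, H2A and H2B in MEC1 and for HIST4 and H1 in JVM2.

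HIST1 falls into 3 blocks parted by gaps of over 500 kilobases. The shares over all genes to set beside them were 20.0% rising and 21.6% falling in MEC1, and 14.1% and 15.3% in JVM2. In MEC1, 13 genes rose and 1 fell of 29 tested in the first block, 2 of 5 rose in the second, and 7 of 16 rose in the third. In JVM2, 7 rose and 2 fell of 29 in the first block, 1 of 5 rose in the second, and 1 rose and 1 fell of 16 in the third. Without JVM2-2B17 replicate 2, the rises in JVM2 numbered 11, 3 and 4 in the same order, and the first block had 2 without JVM2-CTRL replicate 2 or 3. In MEC1, the first block had 9 rises without MEC1-2B17 replicate 1, and the third had 4 without that library or without MEC1-CTRL replicate 2. No test was made of the difference between blocks. The summed level of the second block did not overlap between the arms in either line, at 1816 ± 49.95 and 1990 ± 131.4 CPM in MEC1 and 1899 ± 85.7 and 2126 ± 26.7 CPM in JVM2. That block holds HIST1H4I, which had the largest rise in JVM2, and 4 H2A and H2B genes.

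The classes stand beside the same shares over all genes, 20.0% rising and 21.6% falling in MEC1, and 14.1% and 15.3% in JVM2. By class in MEC1, 9 of 16 H2A genes, 7 of 18 H2B genes, 6 of 13 H3 genes, 4 of 14 H4 genes and 1 of 4 H1 genes rose, and 1 H3 gene fell. Without MEC1-CTRL replicate 3, 8 H2A and 5 H3 genes rose, and without MEC1-2B17 replicate 1 or 3, 6 H2A and 3 H3 genes rose. In JVM2, 5 of 14 H4 genes rose and 1 fell, 3 of 13 H3 genes rose and 1 fell, 2 of 4 H1 genes rose, 1 of 15 H2A genes rose and 1 of 16 H2B genes fell. These counts moved with single libraries, as did the count over all genes given above. Without JVM2-2B17 replicate 2, 7 H2A, 2 H2B, 4 H3, 6 H4 and 2 H1 genes rose, whereas without JVM2-CTRL replicate 2 or 3 the 5 genes that rose were all H4 genes. The classes were not tested against each other. The H4 sum did not overlap between the arms in either line: it was 2925 ± 70.0 CPM in MEC1-CTRL and 3150 ± 114.2 CPM in MEC1-2B17, and 3580 ± 191.4 CPM in JVM2-CTRL and 4044 ± 119.7 CPM in JVM2-2B17. The sums of H2A and of H2B in MEC1 and of H1 in JVM2 did not overlap either. Among single genes, arms did not overlap for 50.1% of all genes tested in MEC1 and 45.2% in JVM2. As a share of histone CPM, H4 was 16.05% ± 0.0554 in MEC1-CTRL and 16.05% ± 0.357 in MEC1-2B17, and 16.01% ± 0.161 in JVM2-CTRL and 17.03% ± 0.240 in JVM2-2B17. The H2B share in JVM2 was 26.32% ± 0.235 in CTRL and 24.9% ± 0.190 in 2B17, without overlap. In MEC1 the H2B share overlapped, at 25.59% ± 0.291 and 25.75% ± 0.462. The MEC1 shares of H1 (21.77% ± 0.303 and 21.11% ± 0.235) and H2A (19.3% ± 0.172 and 19.9% ± 0.351) did not overlap.

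Genes that make and process histone mRNA moved both ways in MEC1. Of 29 tested in MEC1, 7 rose and 5 fell (median log2 fold change -0.0065), beside 20.0% and 21.6% of all genes. Of 28 tested in JVM2, 4 fell and none rose by edgeR (1 rose at an unadjusted p below 0.05, and none rose by DESeq2; median -0.04), beside 15.3% and 14.1% of all genes, and the falls numbered 2 without JVM2-CTRL replicate 1 or 3. In MEC1, 8 fell without MEC1-CTRL replicate 1. SLBP stood at 141.2 ± 5.41 CPM in MEC1-CTRL and 132.8 ± 2.35 CPM in MEC1-2B17 (log2 fold change -0.09 ± 0.0351, adjusted p = 0.052), and in JVM2 at 102.1 ± 4.76 and 107.9 ± 6.91 CPM (0.08 ± 0.0661, adjusted p = 0.40). NPAT fell in MEC1 from 88.7 ± 2.74 to 79.9 ± 0.785 CPM (log2 fold change -0.15 ± 0.0359, adjusted p = 0.0024) and was not called in JVM2 (log2 fold change 0.13 ± 0.0793, adjusted p = 0.24). ZCCHC6, a terminal uridylyltransferase, fell in MEC1 from 136.8 ± 2.54 to 79.8 ± 0.482 CPM (log2 fold change -0.78 ± 0.0323, adjusted p = 9e-13). CDK9, the kinase of P-TEFb, and NCBP1, the larger subunit of the nuclear cap-binding complex, fell in MEC1 by 0.46 and 0.35 on the log2 scale. In JVM2 the largest falls were those of LSM10, part of the U7 ribonucleoprotein, by 0.34, SRRT by 0.32 and CPSF1, a cleavage and polyadenylation subunit, by 0.24.

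In the S phase and DNA replication list, 6 of 36 genes rose and 14 fell in MEC1 (median log2 fold change -0.03), beside 20.0% and 21.6% of all genes. In JVM2, 2 rose and 12 fell (median -0.10), beside 14.1% and 15.3%, and 17 fell without JVM2-2B17 replicate 2. CCNE1, the cyclin E that works with CDK2 at S phase entry, fell by 0.27 on the log2 scale in MEC1 and by 0.43 in JVM2. CDT1, a replication licensing factor, rose in MEC1 by 0.52 ± 0.0462 (adjusted p = 2.8e-08) and was lower in JVM2 by a log2 fold change of -0.33 ± 0.0744 (adjusted p = 0.0053). CCNE2 fell in MEC1 by 0.39, and CLSPN and E2F2 fell in JVM2 by 0.58 and 0.51. The summed level of the list ran from 6453 to 6525 CPM in MEC1-CTRL and from 6233 to 6506 CPM in MEC1-2B17, and from 5870 to 5989 CPM in JVM2-CTRL and from 5394 to 5629 CPM in JVM2-2B17. The part of cell cycle phase in the histone values was not tested.

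Replacement and variant histone genes outside the symbol rule showed 2 rises and 4 falls among 12 tested in MEC1, beside 20.0% and 21.6% of all genes. In JVM2 they showed no call among 9 by edgeR or DESeq2 (1 at an unadjusted p below 0.05 by each), beside 29.3% of all genes. By edgeR, H2AFV, an H2A.Z gene, rose in MEC1 by 0.17 (adjusted p = 0.00057), while the linker histone genes H1FX and H1F0 fell by 0.45 (adjusted p = 0.00086) and 0.21 (adjusted p = 0.025). Of 21 histone chaperone and assembly genes, 5 rose and 4 fell in MEC1, beside 20.0% and 21.6% of all genes, and 1 rose and 5 fell in JVM2, beside 14.1% and 15.3%. In JVM2 the falls numbered 1 without JVM2-CTRL replicate 3 and 3 without JVM2-CTRL replicate 2 or JVM2-2B17 replicate 1. RBBP4, a subunit of the CAF-1 assembly complex, rose in MEC1 by 0.29, and ASF1A, an H3-H4 chaperone, fell there by 0.22. IPO4, an importin that carries H3 and H4, rose in MEC1 by 0.26 and fell in JVM2 by 0.59, and TONSL and CABIN1 fell in JVM2 by 0.37 and 0.29.

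The genes with too few counts to test were HIST1H1A, HIST1H1T, HIST1H2BA, HIST2H2BB, HIST2H2BD and HIST2H3DP1 in every table that lists them, and HIST2H2BC was tested in MEC1 alone. HIST1H1T and HIST1H2BA are testis genes. HIST2H3A, HIST2H3C, HIST2H4A, HIST2H4B and both HIST2H2AA4 identifiers are near-identical copies, so their separate values are uncertain, and none was called in either line.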

How the data were processed

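Total RNA of 12 libraries was depleted of ribosomal RNA and sequenced as pairs on HiSeq instruments at the sites named above. The authors trimmed reads with Trimmomatic, aligned them to hg38 with TopHat2 2.0.14 and deposited raw counts per gene from HTSeq in 1 table per line, beside 12 normalized columns that were not used here. How reads with several placements, and strand, were treated is not given in the sources used here. The tables are filtered: the lowest gene total is 10 counts over the 6 libraries of a line.

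Each line was fitted separately in edgeR 4.0.16 (R 4.3.3): genes kept by filterByExpr, TMM scaling, quasi-likelihood test, Benjamini-Hochberg adjustment over all genes, threshold 0.05. The difference between the lines was the interaction term of 1 fit over the genes of both tables. In an exact permutation test, 3 against 3 cannot go below p = 0.10, so none was used. Coordinates come from GENCODE v44 by identifier for 65 genes and by symbol for 4. Genes were named by rule: the 6 highest per kilobase in each CTRL arm, the 5 largest rises, falls and differences between the lines, genes called in both lines, HIST3 and HIST4 genes, SLBP and NPAT, and up to 3 called genes per list and line; others are marked. Members, lists and rule were chosen with earlier results of these data known. Scripts were tested on simulated data. Alternatives were DESeq2 1.42.0, both tools together, other scalings and filters, a replicate block and leaving out each library.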

Additional observations from a re-analysis of the deposited data

Results flagged for a closer look

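The change from CTRL to 2B17 differed between MEC1 and JVM2 for 14 histone genes by edgeR's interaction term. Among those named in the text, the log2 fold change in MEC1 minus that in JVM2 was -3.79 for HIST1H3C, 2.02 for HIST1H2BE, 0.76 for HIST1H4F, 0.66 for HIST1H3I and 0.57 for HIST2H3D. It was -0.55 for HIST1H4I, -0.32 for HIST1H4J, -0.20 for HIST1H1E and -0.19 for HIST1H1C. The difference for HIST2H3D did not pass the test in DESeq2 (adjusted p = 0.068). Uneven replicates were described by chi-square, and no library was removed from the main fits.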

How the results depend on the processing

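Under DESeq2, both tools together, RLE or library size scaling, other filters and the replicate block, the number of changed histone genes ran from 19 to 30 in MEC1 and from 12 to 20 in JVM2. The low ends came with both tools together, which the paper required for a call. There, 19 of 65 changed in MEC1, beside 5681 of 16579 genes, and 12 of 62 in JVM2, beside 2959 of 13021. The high ends came with the replicate block, beside 6897 of 16581 genes in MEC1 and 4236 of 13021 in JVM2. With at least 10 counts in every library, HIST1H3C was not tested in MEC1 and 0 genes fell there (edgeR). The opposite-direction count was 1 in DESeq2 and with both tools. Whether replicate numbers pair the samples was not settled, since 3 libraries per arm are too few to decide it. Same-number correlations ran from -0.0422 to 0.0400 in MEC1 and from -0.00594 to 0.117 in JVM2. Correlations between different numbers ran from -0.0749 to 0.0853 in MEC1 and from -0.117 to 0.0623 in JVM2. A replicate block gave 17 rises in JVM2 and 5 genes changed in the same direction in both lines.

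Leaving out 1 library at a time gave 8 to 24 changed histone genes in JVM2 (5 to 21 higher). Over all genes, the same JVM2 fits gave 2687 to 4541 changed (1281 to 2172 higher). In MEC1, 1 to 2 histone genes were lower, 2 to 9 changed alike in both lines and 2 to 3 in opposite directions. The HIST2 median ran from 0.135 to 0.238 in MEC1 and from -0.0954 to 0.0340 in JVM2. Uncalled values changed sign: HIST1H1C (-0.0469 to 0.0195), HIST1H1E (-0.0449 to 0.0184), HIST1H4J (-0.0739 to 0.0391), HIST1H4F (-0.0554 to 0.0520) and HIST4H4 (-0.0373 to 0.0970) in MEC1, HIST1H3C in JVM2 (-0.120 to 0.0967) and the HIST1H3B difference between the lines (-0.0536 to 0.112). The cause was not tested.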
